A study of Mus musculus with 4 samples.

Results

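E proteins are transcription factors of the basic helix-loop-helix family, and Id proteins are their inhibitors. The 6 genes followed are given by their mouse symbols: Tcf3, Tcf4 and Tcf12 for the E proteins, and Id1, Id2 and Id3 for the inhibitors. They were the 6 rows with these symbols among 31053 genes counted in single mouse T-cell progenitors. E proteins bind DNA in pairs at a short sequence called the E box, and they switch on genes of the T and B lineages. Id proteins carry the helix-loop-helix that forms the pair but lack the region that touches DNA, so an E protein held by an Id protein does not bind. In the thymus E proteins are known for driving T-lineage genes and holding back innate lymphoid development, and Id2 is known as a factor of innate lymphoid and dendritic cells.

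Bone marrow progenitors from B6.Bcl2 transgenic mice, aged 8 to 10 weeks, or from B6.Cas9;Bcl2 transgenic mice were grown on OP9-Dll1, a stromal line that presents a Notch ligand, with IL-7 and Flt3-ligand at 10 ng/ml each. On day 2 the first received a retrovirus with Runx1 and mCherry (MSCV-Runx1-mCherry) or the empty vector, and live Lineage-negative, mCherry+, CD45+ cells were sorted on day 4 or 6. The second received guides against Runx1 and Runx3, 3 pairs for each gene, or control guides against luciferase (E42 vectors), and live Lineage-negative, mTurquoise+, human NGFR+, CD45+ cells were sorted on day 5 or 8. By their labels the libraries span culture days 4 to 5 (experiment 1) and 4 to 8 (experiment 2). All cultures carried the Bcl2 transgene, and its promoter is not given in the sources used here. Each culture was stained with 1 of 8 hashtags, antibodies carrying a short DNA barcode, before the cultures were pooled into 1 mRNA library per experiment.

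No source used here ties a hashtag to a vector, a guide or a day, so the 8 hashtags of an experiment are described as 8 cultures of unknown condition, numbered in the column order of the deposited tables. There was no replicate of a known group, and no test of a condition could be made.

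Of the cells that passed the filters, 8797 of 9332 (94.3%) in experiment 1 and 8335 of 10214 (81.6%) in experiment 2 could be given a hashtag. A hashtag held 691 to 1291 cells and 14502385 to 38067298 unique molecular identifiers (UMIs, counted molecules) in experiment 1, and 855 to 1312 cells and 22272716 to 42684236 UMIs in experiment 2. The 2 libraries shared 39 cell barcodes. Summed progenitor markers (8 genes, Kit and Flt3 among them) lay at 426 to 695 counts per 1e6 UMIs (CPM) in experiment 1 and 233 to 657 in experiment 2, and summed T-lineage markers (11 genes) at 450.0 to 1163 and 266 to 1977. Per the labels the cells were early T-cell progenitors high in Kit, and a Kit UMI was seen in 3876 of 8224 cells of experiment 1 and 2218 of 7746 of experiment 2 at an equal depth of 10000 UMIs. Markers of other cells were there too. Granulocyte or monocyte markers (11 genes) reached 1586 CPM in experiment 1 and 12406 in experiment 2, and stromal markers (10 genes) 128 and 973.

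The level of a gene in a hashtag is its UMIs per 1e6 UMIs of that hashtag (CPM). Only the 3′ end of a transcript was sequenced, so a level is not divided by gene length, and a ratio between genes is a ratio of UMIs and not of proteins. Intervals are exact 95% intervals and cover counting error only. The E protein genes varied less between cultures than the Id genes in experiment 1. Tcf3, which encodes the founding E protein of the family, stood at 87.8, 86.4, 106, 115, 93.6, 93.3, 84.3 and 81.9 CPM in hashtags 1 to 8 of experiment 1. In experiment 2 Tcf3 stood at 72.3, 92.9, 74.3, 90.9, 71.3, 60.2, 83.6 and 69.5 CPM. Hashtags 3 and 4 were highest in experiment 1, each clear of the other 6 by their intervals, and hashtag 6 was lowest in experiment 2.

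Tcf12, which encodes HEB, the partner of the Tcf3 product in early T cells, stood at 44.1, 42.4, 72.7, 72.7, 69.0, 58.4, 52.0 and 50.2 CPM in hashtags 1 to 8 of experiment 1. In experiment 2 its levels were 29.8, 50.0, 39.7, 85.8, 35.3, 32.7, 67.7 and 49.9 CPM. Hashtags 1 and 2 were lowest in experiment 1, and hashtags 3, 4 and 5 highest with overlapping intervals. In experiment 2 hashtag 4 led, hashtag 7 came next, and the intervals of hashtags 1 and 6 at the bottom overlapped. Tcf4, an E protein gene better known from plasmacytoid dendritic cells, stood at 46.5, 48.1, 58.0, 57.9, 49.6, 45.7, 52.0 and 47.9 CPM in experiment 1. In experiment 2 Tcf4 stood at 47.9, 67.5, 38.1, 52.4, 44.1, 49.7, 46.7 and 45.8 CPM. Each neighbouring pair among its 6 lowest hashtags of experiment 1 had overlapping intervals, and hashtag 2 of experiment 2 stood above the other 7.

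The Id genes varied more. Id1, a known early target of BMP signals, stood at 19.2, 20.5, 7.61, 8.20, 25.4, 31.5, 65.0 and 55.0 CPM in hashtags 1 to 8 of experiment 1. In experiment 2 Id1 stood at 35.4, 17.4, 39.1, 30.8, 31.6, 70.8, 22.9 and 36.7 CPM. Hashtags 7 and 8 were highest in experiment 1 and hashtags 3 and 4 lowest, the reverse of their place for Tcf3. Id2 stood at 32.6, 32.0, 40.4, 32.6, 45.4, 55.6, 103 and 86.1 CPM in experiment 1. In experiment 2 its levels were 46.7, 62.2, 59.4, 74.6, 95.8, 119, 51.3 and 119.9 CPM. Hashtags 7 and 8 led again in experiment 1, and hashtags 6 and 8 in experiment 2, with overlapping intervals.

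Id3, known as a target of T-cell receptor and Egr signals, stood at 10.2, 10.5, 5.93, 12.7, 17.2, 13.4, 70.4 and 52.3 CPM in hashtags 1 to 8 of experiment 1. In experiment 2 Id3 stood at 62.6, 65.5, 54.7, 106, 49.9, 143, 41.6 and 99.6 CPM. The lowest value, in hashtag 3 of experiment 1, rested on 176 UMIs. In experiment 1 hashtags 7 and 8 stood clear of the other 6, and in experiment 2 hashtag 6 led, with hashtags 4 and 8 next. Id4, the remaining member of the Id family, had 0 UMIs in 6 hashtags of experiment 1, where the intervals reach up to 0.101 to 0.254 CPM. Its highest level in any hashtag was 0.600 CPM (hashtag 2 of experiment 2).

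**Figure D1:**
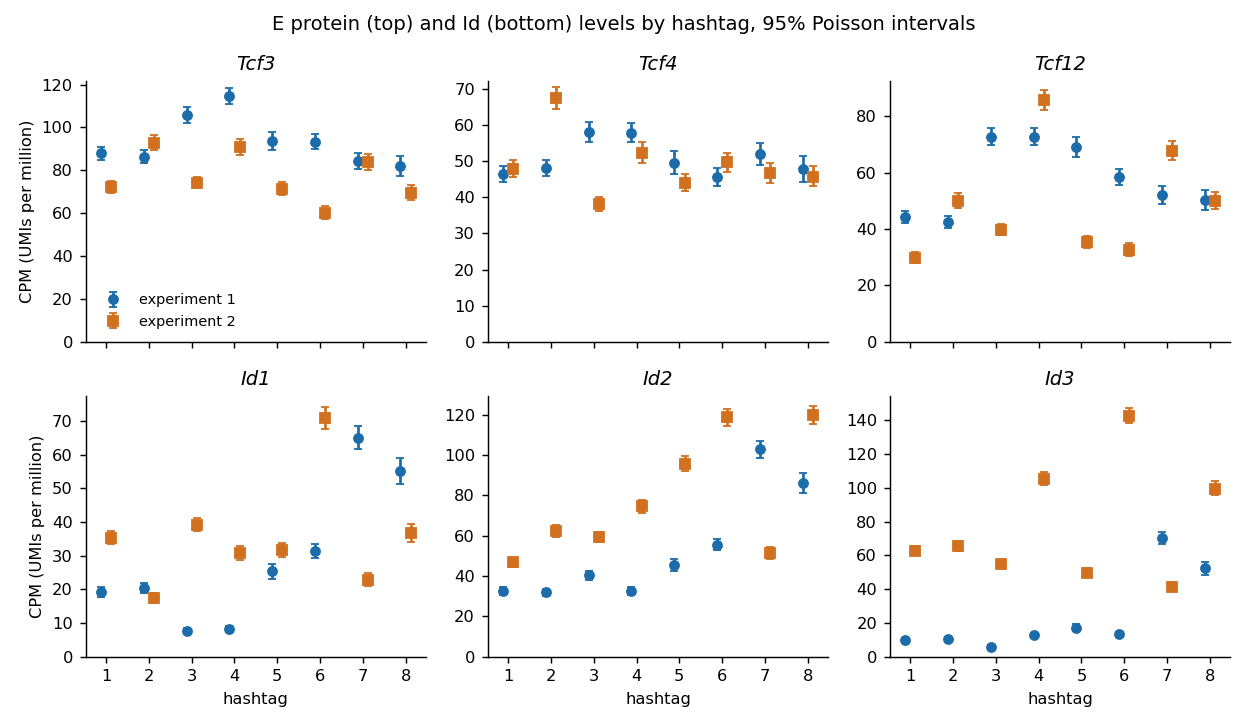
Level of each member by hashtag, in CPM (linear axes from 0), with exact 95% Poisson intervals as bars, for experiment 1 (blue circles) and experiment 2 (orange squares). The Id genes of experiment 1 are highest in hashtags 7 and 8, with Id3 at 70.4 and 52.3 CPM there, while the 3 E protein genes span narrower ranges.

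The highest hashtag of experiment 1 exceeded the lowest by 1.40 times for Tcf3 (interval 1.31 to 1.50), 1.27 times for Tcf4 (1.18 to 1.37) and 1.72 times for Tcf12 (1.61 to 1.83). For the inhibitors the same ratio was 8.54 for Id1 (7.42 to 9.87), 3.22 for Id2 (3.00 to 3.45) and 11.9 for Id3 (10.2 to 14.0). Without hashtag 3 the Id3 ratio was 6.90. All 3 Id genes and no E protein gene thus passed 2-fold, among 8767 genes of which 10.7% did so. In experiment 2 the ratios were 1.54 for Tcf3 (1.45 to 1.64), 1.77 for Tcf4 (1.65 to 1.89), 2.88 for Tcf12 (2.67 to 3.10), 4.06 for Id1 (3.67 to 4.49), 2.56 for Id2 (2.41 to 2.73) and 3.43 for Id3 (3.19 to 3.68). The 3 Id genes and Tcf12 passed 2-fold, 4 of the 6 members, where 17.2% of 8766 genes did so. Without hashtag 6 the Id1 ratio of experiment 2 was 2.25. Of all genes tested, 0.582% had a larger ratio than Id3 and 0.947% a larger one than Id1 in experiment 1, and 7.73% and 6.30% in experiment 2. For Tcf3, Tcf4 and Tcf12 these shares were 35.8%, 57.2% and 16.3% in experiment 1, so Tcf3 and Tcf12 spanned more there than the median gene (1.31 times).

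The balance of the 2 classes was read as summed Tcf3, Tcf4 and Tcf12 UMIs over summed Id1, Id2 and Id3 UMIs. In experiment 1 this E protein to Id ratio was 2.88, 2.81, 4.39, 4.59, 2.41, 1.97, 0.791 and 0.930 in hashtags 1 to 8. Hashtags 1 to 6 lay above 1, and hashtags 7 and 8 below it, but with Id2 and Id3 only in the denominator all 8 lay above 1 (lowest 1.09). In experiment 2 the ratio was 1.04, 1.45, 0.993, 1.09, 0.850, 0.429, 1.71 and 0.645, with 4 hashtags on each side of 1. The intervals of hashtags 1 (0.997 to 1.08) and 3 (0.959 to 1.03) included 1, and 3 to 6 hashtags lay above 1 under the other settings tried (3 with HTODemux, another way of calling hashtags, and 5 without a stromal-like cluster of cells). The intervals of hashtags 1 and 2 overlapped in experiment 1, as did those of hashtags 3 and 4. In experiment 2 those of hashtags 1 and 3 overlapped, and those of hashtags 1 and 4.

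Hashtag 4 had the highest ratio of experiment 1, 5.80 times that of hashtag 7 (interval 5.42 to 6.20). Hashtag 7 had the highest ratio of experiment 2, 3.98 times that of hashtag 6 (3.75 to 4.24), and without hashtag 6 the span was 2.65 times. The Id sum spanned more than the E protein sum. In experiment 1 the highest Id sum (238 CPM) was 4.45 times the lowest (53.5 CPM), and the highest E protein sum (245 CPM) 1.39 times the lowest (177 CPM). In experiment 2 the Id sum spanned 2.87 times (116 to 332 CPM) and the E protein sum 1.61 times (143 to 229 CPM). Among Id UMIs the largest share was that of Id2 in every hashtag of experiment 1 (43.2 to 74.9%), while the Id3 share was 28.1 to 50.1% in experiment 2 and 11.0 to 29.5% in experiment 1.

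**Figure D2:**
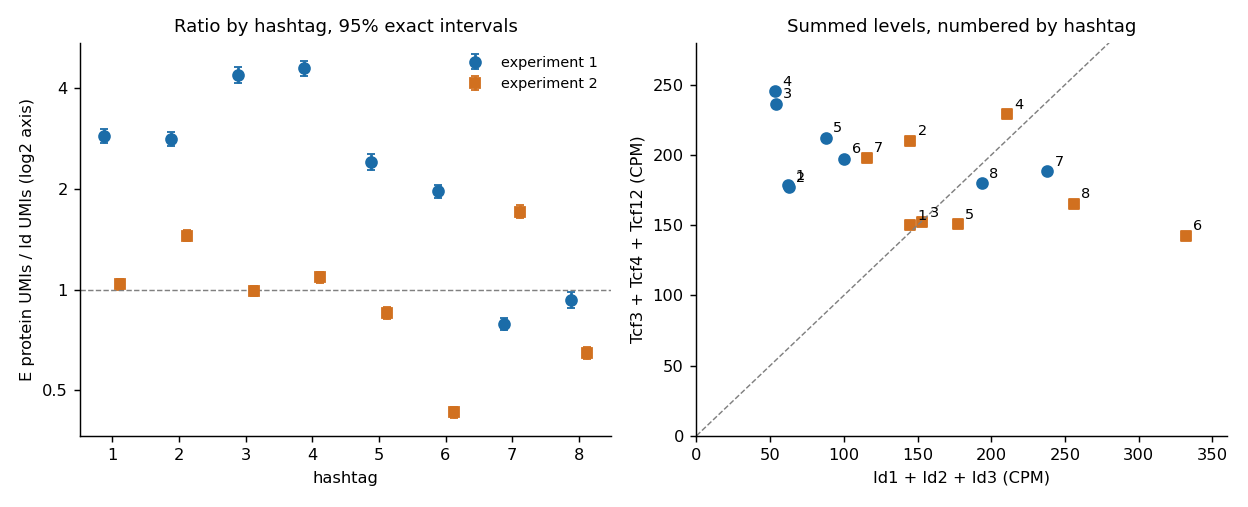
Left, E protein UMIs over Id UMIs by hashtag on a log2 axis, with exact 95% intervals, for experiment 1 (blue circles) and experiment 2 (orange squares), and a dashed line at 1. Right, the summed E protein level against the summed Id level of each hashtag in CPM (linear axes from 0), numbered by hashtag, with the line of equal levels: the points spread further along the Id axis (53.5 to 332 CPM) than along the E protein axis (143 to 245 CPM).

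Over the 8 hashtags the levels of the inhibitors went together more closely in experiment 1 than in experiment 2, and of the 3 it was Id1 that went most against Tcf3. These correlations of log2(CPM + 1) are descriptions over 8 cultures that share a library and its depth. They use all cells with a hashtag, and in experiment 2 a stromal-like cluster held 46.5% of the Id3 UMIs. Pearson's r between Id genes was 0.84 to 0.89 in experiment 1 and 0.55 to 0.67 in experiment 2, where Spearman's rho was 0.36 for Id1 with Id2 and for Id1 with Id3. Tcf3 and Id1 had r of -0.86 in experiment 1 and -0.87 in experiment 2. Tcf3 had r of -0.54 and -0.56 with Id2, and of -0.60 and -0.36 with Id3 (rho -0.24 in experiment 2). Tcf3 and Tcf12 had r of 0.82 and 0.74. Tcf12 and Id2 showed little relation, with r of -0.10 and -0.12.

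The same balance was read in single cells after each cell was thinned to 10000 UMIs, which left out 573 shallower cells of experiment 1 and 589 of experiment 2. Cells with more Id than E protein UMIs made up 6.49 to 31.1% of a hashtag in experiment 1 (median 12.2%) and 15.8 to 43.9% in experiment 2 (median 24.6%). The highest share was in hashtag 7 of experiment 1 and in hashtag 6 of experiment 2, the hashtags with the lowest ratio. Cells with UMIs of neither class made up 6.50 to 11.4% and 5.34 to 12.7%. For free RNA as a source of Id3 UMIs, mast or basophil-like cells of experiment 1 had an Id3 UMI in 1 of 113 thinned cells (0.885%, interval 0.0224 to 4.83%, median depth 22754 UMIs), against 140 of 588 cells (23.8%, 20.4 to 27.5%, median depth 13927 UMIs) in cluster 5, the cells led by Asb2 and Cd200r3. Without thinning these shares were 0.847% and 25.0%. In experiment 2 the mast or basophil-like cells had an Id3 UMI in 4 of 112 (3.57%, 0.982 to 8.89%, median depth 21673 UMIs). Clusters 3 (3.23%) and 5 (2.98%) of that experiment lay below this share and within its interval. Whether Id3 UMIs at such shares come from free RNA was not tested.

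Id3 tended to be found in the same cells as Id1 and as Id2. The share of cells with a UMI of both Id1 and Id3 was set against the product of the single shares within each hashtag. The observed share exceeded the product in 8 of 8 hashtags of each experiment, with a median of 2.28 times in experiment 1 (1.53 to 5.31) and 1.81 times in experiment 2 (1.29 to 4.06). Id2 and Id3 did so in 8 of 8 hashtags as well, with medians of 1.77 and 1.59. Id1 and Id2 exceeded the product in only 4 of 8 hashtags of experiment 1 (median 1.06, 0.792 to 1.20) and in 7 of 8 of experiment 2 (median 1.22, 0.847 to 1.92). Without cells that held at least 3 stromal UMIs, Id1 and Id3 still exceeded the product in every hashtag, with medians of 2.36 and 1.90. The E protein pairs stayed near the product, with Tcf3 and Tcf12 at medians of 1.02 and 1.04. A gene found in more cells leaves less room above the product. Tcf3 was found in 53.0 to 66.5% and 43.0 to 60.5% of the thinned cells of a hashtag, and Id3 in 3.64 to 17.3% and 9.29 to 25.5%. A hashtag also mixes clusters, and the part of that in these shares was not tested.

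Cells of each experiment were clustered without the 6 members, and a cluster took a name only from its markers. The highest E protein to Id ratios lay in clusters with Pgam2 among their 10 leading genes. In experiment 1 these were cluster 8, T-lineage-like (793 cells, ratio 7.31, interval 6.80 to 7.87), and the unnamed cluster 9 (832 cells, 6.97, 6.40 to 7.60). Their Id1 level was 3.17 and 1.63 CPM and their Id3 level 3.56 and 3.69 CPM, while Tcf3 stood at 119 and 115 CPM. In experiment 2 the unnamed cluster 3, led by Pgam2 and St8sia6 (825 cells), had a ratio of 5.81, and cluster 2, led by Tox2 and Themis (504 cells), had 5.63. Hashtags 3 and 4, with the highest ratios of experiment 1, gave 376 and 416 of the cells of cluster 8 and 416 and 410 of those of cluster 9, and hashtags 2 and 4 gave 588 and 226 of those of cluster 3. Hashtag 4 gave 434 of the cells of cluster 2. Cluster 2 also held the highest Tcf12 level of any cluster, 159.6 CPM (interval 151 to 169).

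The lowest ratios lay in clusters with markers of other lineages, but a progenitor-like cluster of experiment 2 also lay below 1. This was cluster 13 (526 cells, 59.3% of them in hashtag 6), with a ratio of 0.794 (interval 0.750 to 0.841). Its Id1 level was 55.1 CPM and its Id3 level 76.2 CPM. Id2 reached 484 CPM (interval 460.3 to 509) in the innate lymphoid-like cluster of experiment 1 (184 cells, ratio 0.381) and 591 CPM (566 to 617) in that of experiment 2 (193 cells, 0.240). It reached 1183 CPM (1112 to 1257) in the 41 dendritic-like cells of experiment 2, where the ratio was 0.0663. Id1 was high without Id3 in the mast or basophil-like clusters, at 79.9 CPM in experiment 1 and 117 CPM in experiment 2, with Id3 at 1.04 and 9.32 CPM. In B-lineage-like cells of experiment 2 (148 cells) Tcf3 stood at 117 CPM and Id2 at 212 CPM. The unnamed cluster 6 of experiment 2 (681 cells), with C1qb and Il1b among its leading genes, held all 3 inhibitors, with Id1 at 106, Id2 at 299 and Id3 at 169.95 CPM.

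Cluster 5 of experiment 1, led by Asb2 and Cd200r3 (797 cells, 69.6% of them in hashtag 7), held all 3 inhibitors as well. Id1 stood at 85.0, Id2 at 119.5 and Id3 at 112 CPM there, with a ratio of 0.599 (interval 0.569 to 0.631). Its E protein levels lay within the range of the other clusters, with Tcf3 at 82.8 and Tcf12 at 54.6 CPM. The unnamed cluster 1 of experiment 2, led by Gzmc and Cd8b1 (166 cells), had Id3 at 214 CPM and the lowest Tcf4 level of any cluster, 7.78 CPM (interval 5.48 to 10.7).

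**Figure D3:**
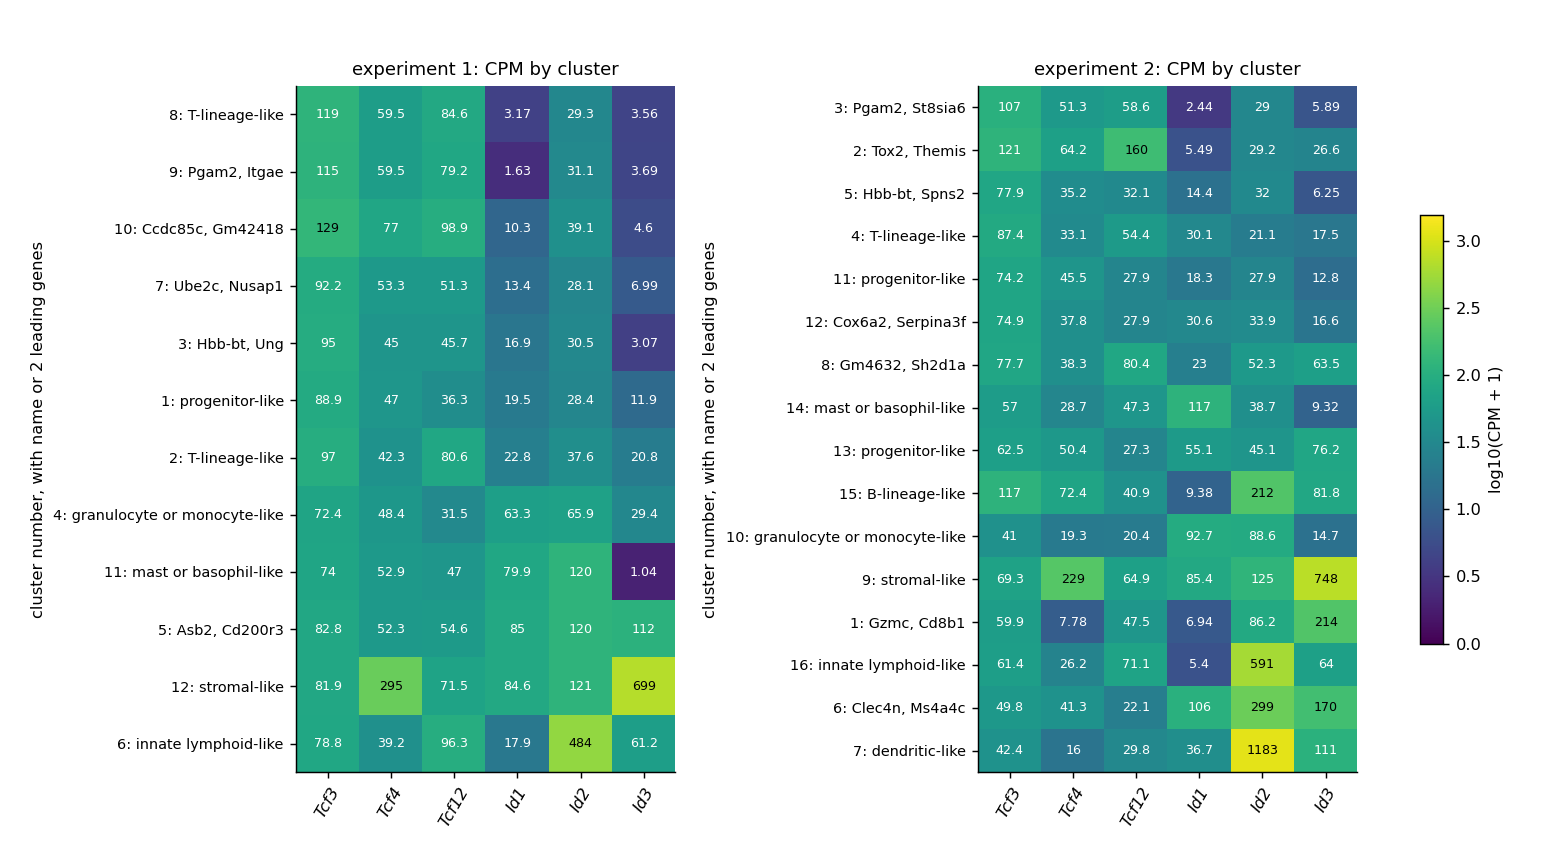
Level of each member (columns) in each cluster (rows, from the highest E protein to Id ratio at the top to the lowest) of experiment 1 (left) and experiment 2 (right), with the CPM printed in each field and colour on a log10(CPM + 1) scale. Id2 is highest in the dendritic-like (1183 CPM) and innate lymphoid-like clusters (484 and 591 CPM), and Id3 in the stromal-like clusters (699 and 748 CPM).

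Hashtags also differed in ratio within clusters. In experiment 1, 5 clusters had at least 20 cells in 7 or 8 hashtags. In 4 of them the lowest ratio was in hashtag 7 or 8 and the highest in hashtag 3 or 4. In the T-lineage-like cluster 2 the ratio ran from 1.75 in hashtag 7 (157 cells, interval 1.55 to 1.98) to 4.61 in hashtag 3 (59 cells, 3.60 to 5.95). The exception was the granulocyte or monocyte-like cluster, lowest in hashtag 3 (0.592) and highest in hashtag 1 (1.71). In experiment 2, 6 clusters had enough cells, and hashtag 6 was lowest in 5 of them. Hashtag 7, highest over all cells, was highest in 1 of the 6 (cluster 12), while hashtag 4 was highest in 3 and hashtag 2 in 2. In its T-lineage-like cluster 4 the ratio ran from 0.965 in hashtag 6 (27 cells, 0.757 to 1.23) to 4.14 in hashtag 4 (65 cells, 3.30 to 5.22). Across these clusters the highest hashtag exceeded the lowest by 2.63 to 5.06 times in experiment 1 and by 3.17 to 8.54 times in experiment 2.

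Stromal-like cells carried much of the Id3 and Tcf4 signal of experiment 2. The stromal-like cluster there held 207 cells, 2.48% of those with a hashtag, although the sort was for CD45+ cells. It held 46.5% of the Id3 UMIs and 22.1% of the Tcf4 UMIs, with Id3 at 748 CPM and Tcf4 at 229 CPM. In experiment 1 that cluster held 16 cells, 12.2% of the Id3 UMIs and 2.02% of the Tcf4 UMIs. Of the 10 stromal markers Lum was at 0 in 7 hashtags of experiment 1 and in 1 of experiment 2, and no other marker was at 0 in a hashtag. The summed stromal level was 12.2 to 128 CPM in experiment 1 and 202 to 973 CPM in experiment 2.

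Without the stromal-like cluster Id3 stood at 32.3, 12.3, 35.2, 57.9, 17.9, 85.8, 34.8 and 79.6 CPM in hashtags 1 to 8 of experiment 2. Hashtag 2 was then the lowest, and hashtag 6 remained the highest. The highest exceeded the lowest by 6.95 times, where it did so by 3.43 times with all cells. Tcf4 then stood at 39.4, 49.1, 33.0, 45.0, 34.4, 36.2, 44.4 and 39.4 CPM, and its ratio went from 1.77 to 1.49. The E protein to Id ratio of hashtag 2 went from 1.45 to 2.23, the highest of the 8. In experiment 1 the Id3 level of hashtag 4 went from 12.7 to 5.95 CPM without the cluster, and the Id3 ratio from 11.9 to 13.8.

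Clusters named for another lineage were left out next, with unnamed clusters led by myeloid or mature T-cell genes. The innate lymphoid-like clusters, high in Id2, were kept in this step. It gave E protein to Id ratios of 2.59, 4.53, 1.58, 3.89, 2.25, 0.729, 2.32 and 0.840 in hashtags 1 to 8 of experiment 2. Hashtags 6 and 8 stayed below 1, and hashtags 2 and 4 were then the highest. In these cells Id2 ran from 29.2 CPM in hashtag 1 to 84.6 in hashtag 8, and Id3 from 7.18 in hashtag 2 to 74.9 in hashtag 8. In experiment 1, where no unnamed cluster met this rule, the same step gave 3.08, 3.48, 5.73, 6.17, 2.92, 2.77, 0.734 and 1.07. Hashtag 7 stayed lowest and hashtag 4 highest.

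**Figure D4:**
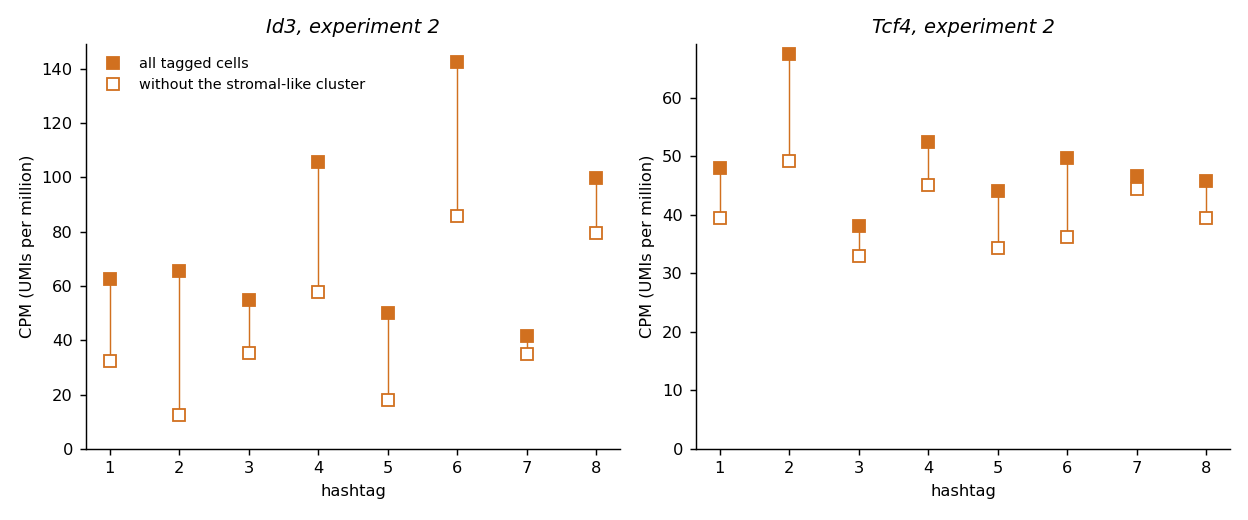
Id3 (left) and Tcf4 (right) in CPM (linear axes from 0) by hashtag of experiment 2, in all cells with a hashtag (filled) and without the stromal-like cluster (open). Id3 goes from 65.5 to 12.3 CPM in hashtag 2 and from 41.6 to 34.8 CPM in hashtag 7.

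Early T-cell progress was read from 3 genes in cells thinned to 10000 UMIs: Kit, a receptor of progenitors, Il2ra, whose start marks the next step, and Bcl11b, which marks T-lineage commitment. The groups are ranges and not cell types, since 64.9% of the cells with Kit in experiment 1 and 73.5% in experiment 2 had only 1 Kit UMI, and for Bcl11b the shares were 51.8% and 47.2%. Tcf12 was higher along these ranges in both experiments. It stood at 48.7 CPM (interval 45.5 to 52.1) in cells with Kit and no Il2ra, at 69.0 (65.3 to 72.9) with Kit and Il2ra but no Bcl11b, and at 105 (97.0 to 113) with Il2ra and Bcl11b in experiment 1. In experiment 2 the levels were 39.7, 59.0 and 102 CPM. Within hashtags with at least 20 cells in both ranges, Tcf12 was higher with Il2ra and Bcl11b than with Kit and no Il2ra in 7 of 7 hashtags of experiment 1 and 6 of 7 of experiment 2, with median ratios of 1.91 and 2.18. Tcf3 differed less, with median ratios of 1.02 and 1.09.

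Id3 had its own highest level in the last range, at 11.7, 16.1 and 45.0 CPM in experiment 1 and 32.7, 24.8 and 48.0 CPM in experiment 2. It was higher with Il2ra and Bcl11b than with Kit and no Il2ra in 7 of 7 and 5 of 7 hashtags. Id1 stood at 17.5, 24.0 and 29.6 CPM in experiment 1 and 23.5, 19.8 and 14.7 CPM in experiment 2. Within hashtags Id1 was higher in the last range than in the first in 3 of 7 and 2 of 7. Id2 was lower in 5 of 7 and 6 of 7 hashtags, with median ratios of 0.784 and 0.331. Its pooled level was 52.4, 51.0 and 52.9 CPM in experiment 1, where the ranges draw unequally on the hashtags, and 92.5, 49.1 and 37.4 CPM in experiment 2. The E protein to Id ratio was 2.47, 2.41 and 2.05 in experiment 1 and 1.13, 2.00 and 2.45 in experiment 2. Within hashtags it was higher in the last range than in the first in 5 of 7 and 7 of 7, by median ratios of 1.05 and 2.21.

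Cells with Zbtb16, a factor of innate-like lymphocytes, had a ratio of 3.35 (interval 3.07 to 3.67) in experiment 1 and 2.19 (1.99 to 2.41) in experiment 2, with Id1 at 10.3 and 9.43 CPM. They numbered 866 and 594 cells, drawn unequally from the hashtags (17 to 322 and 6 to 226 cells per hashtag). No comparison within hashtags was made for this range, so the part of the hashtags in its ratio was not tested. The median cell of the 3 ranges and of the Zbtb16 range held 0 to 1.94 granulocyte or monocyte UMIs and 0 to 0.393 stromal UMIs per 10000. Plasmacytoid dendritic markers stood at 4.24 to 6.05 there. Erythroid or megakaryocyte markers stood at 3.34, 16.5 and 1.62 along the 3 ranges of experiment 1 and at 2.29, 12.9 and 0.613 in experiment 2. Innate lymphoid markers were higher along the 3 ranges, as Tcf12 was, at 0.755, 8.68 and 32.6 UMIs per 10000 in the median cell of experiment 1 and 0.560, 10.2 and 27.2 in experiment 2. The Zbtb16 range held 20.3 and 17.7, and Zbtb16 is itself 1 of those markers. The part of these markers in the levels was not tested, except that without cells holding at least 3 stromal UMIs Tcf12 stood at 46.8, 68.3 and 100.9 CPM in experiment 1 and at 38.2, 58.2 and 102 CPM in experiment 2.

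**Figure D5:**
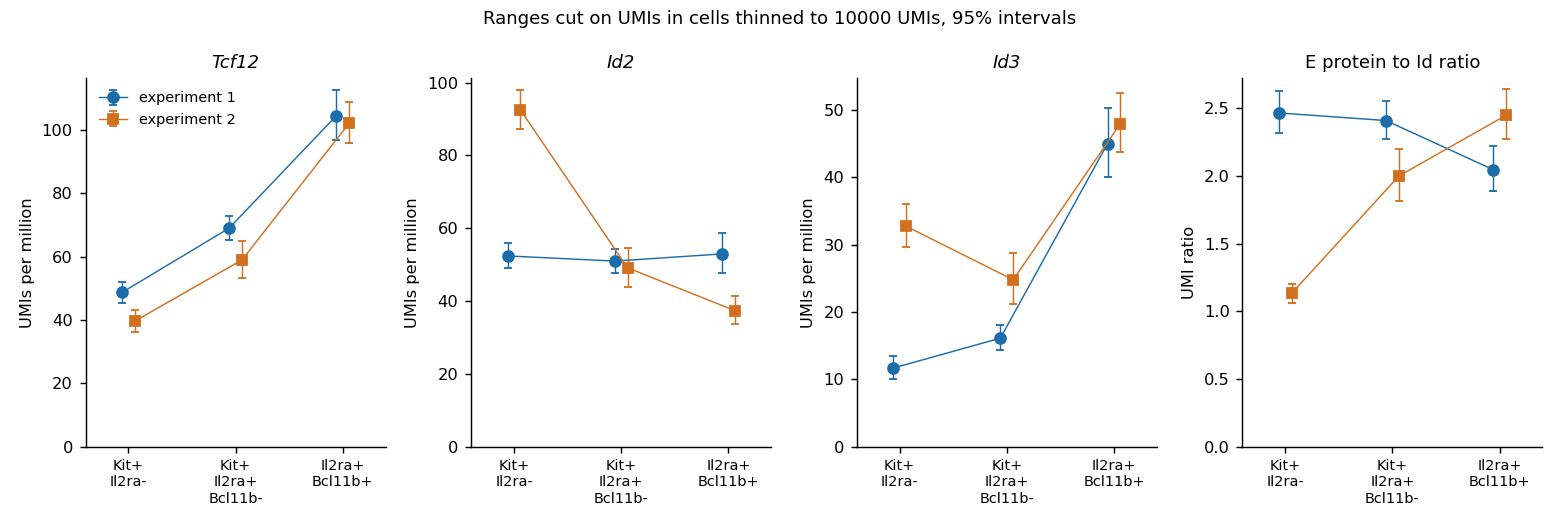
Levels of Tcf12, Id2 and Id3 in CPM and the E protein to Id ratio (linear axes from 0) in 3 ranges of cells thinned to 10000 UMIs, for experiment 1 (blue circles) and experiment 2 (orange squares), with exact 95% intervals. Tcf12 goes from 48.7 to 105 CPM and from 39.7 to 102 CPM from the first range to the last.

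Between the experiments the inhibitors were higher and Tcf3 and Tcf12 lower in experiment 2. Over all cells with a hashtag Id3 stood at 19.9 CPM in experiment 1 and 75.4 in experiment 2, 3.79 times higher (interval 3.67 to 3.92). Id2 was 1.57 times higher (48.2 and 75.9 CPM) and Id1 1.41 times higher (25.4 and 35.8 CPM). Tcf3 was at 0.812 times (94.3 and 76.6 CPM), Tcf12 at 0.827 times (57.0 and 47.1 CPM) and Tcf4 at 0.954 times (50.8 and 48.4 CPM). The median gene tested was at 0.899 times, and TMM scaling gave 0.858 for Tcf3, 0.873 for Tcf12 and 1.01 for Tcf4. The E protein to Id ratio was 2.16 in experiment 1 and 0.920 in experiment 2. Of 8770 genes tested, 1.86% passed 2-fold upward in experiment 2 and 0.342% downward, and among the members Id3 alone passed. The experiments differ in library and in days of culture, which cannot be told apart. Without the stromal-like clusters Id3 was 2.42 times higher. Without the clusters named for other lineages Id3 was 2.69 times higher, Id2 1.51 times and Id1 1.57 times. Without the unnamed myeloid or mature T-cell clusters too, Id3 was 1.69 times higher, Id2 1.01 times and Id1 1.23 times. This last step left out unnamed cells of experiment 2 only, since no unnamed cluster of experiment 1 met its rule. Cluster 5 of experiment 1, which held all 3 inhibitors, thus stayed. The innate lymphoid-like clusters were kept in both steps. Id3 was 5.29 times higher without hashtag 7 of experiment 1.

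The promoters of Id2 and Id3 are shown because the levels of these genes went together over the hashtags (r of 0.89 and 0.67), and because the E box, CANNTG, is the sequence that E proteins bind. Each is the 250 bases before the gene's start on its own strand, from RefSeq (GRCm38.p6), with E boxes in capitals. Promoters of 4 of the 6 members were in that table. The r values are over all cells with a hashtag, where the stromal-like cluster held 46.5% of the Id3 UMIs of experiment 2.
Id2, chr12:25096093-25096342, minus strand: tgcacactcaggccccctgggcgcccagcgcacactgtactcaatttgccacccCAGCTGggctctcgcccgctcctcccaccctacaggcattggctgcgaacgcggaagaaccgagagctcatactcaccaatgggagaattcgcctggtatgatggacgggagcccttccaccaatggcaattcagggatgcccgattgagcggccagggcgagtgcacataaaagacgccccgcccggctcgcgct
Id3, chr4:136143572-136143821, plus strand: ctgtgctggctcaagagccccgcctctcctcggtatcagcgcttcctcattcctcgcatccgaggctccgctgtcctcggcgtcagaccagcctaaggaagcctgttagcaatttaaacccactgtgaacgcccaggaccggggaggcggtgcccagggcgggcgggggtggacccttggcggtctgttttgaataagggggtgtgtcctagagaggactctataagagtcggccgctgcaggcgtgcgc
The Id2 window held 1 E box and the Id3 window 0, and 66.2% of 32851 promoter windows of the same length held at least 1. The letters TGTGGT, a motif of Runx factors, were in 14.0% of all windows on either strand and in neither of those shown, and AGATAA, a motif of GATA factors, in 9.99% and in neither. Id2 itself lies at chr12:25093799-25096092, Id3 at chr4:136143822-136145392, Tcf3 at chr10:80409541-80433976, Id1 at chr2:152736251-152737410 and Tcf12 at chr9:71844252-72111893 in that assembly.

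Lists of genes around the E proteins were counted by the same 2-fold rule. Of 16 genes of E protein partners and cofactors, 9 could be tested in experiment 1 and 3 passed 2-fold, with 2 of 8 in experiment 2, against 10.7% and 17.2% of all genes. Lmo2, a cofactor of pairs of E proteins with Tal or Lyl proteins, spanned 25.8 to 80.4 CPM in experiment 1. It spanned 11.0 to 124 CPM in experiment 2, where hashtag 7 was lowest and hashtag 6 highest. Lmo1 ran from 13.1 to 39.5 CPM and from 26.9 to 57.1 CPM. Bhlhe40, a repressor of the wider family, ran from 2.59 to 14.3 CPM in experiment 1. The median highest to lowest ratio of the list was 1.58 and 1.86, beside 1.31 and 1.37 over all genes tested.

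Of 22 T-lineage genes known as E protein targets, 11 of the 14 that could be tested passed 2-fold in experiment 1 and 14 of 16 in experiment 2. The share of all genes was 10.7% and 17.2%. Median ratios of the list were 3.70 and 8.30. Dntt, the enzyme that adds bases at antigen receptor joints, ran from 6.16 CPM in hashtag 4 to 110 in hashtag 7 of experiment 1. Cd3g, a chain of the T-cell receptor complex, ran from 13.5 CPM in hashtag 2 to 194 in hashtag 4 there, and from 20.9 in hashtag 1 to 743 in hashtag 4 of experiment 2. Lef1 (1.53 to 22.2 CPM) and Cd3d (2.16 to 31.2 CPM) completed the top 4 of experiment 1, and Cd3d (3.53 to 232 CPM), Bcl11b (2.04 to 128 CPM) and Rag1 (0.379 to 14.7 CPM) were in the top 4 of experiment 2. Dntt and Lef1 were highest in hashtag 7 of experiment 1, where the E protein to Id ratio was lowest (0.791). In experiment 2 Dntt was highest in hashtag 7, where that ratio was highest (1.71), and Lef1 in hashtag 8 (0.645). How these genes relate to the ratio was not tested.

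Of 15 genes known to induce Id genes or to act in the pathways that do, 4 of 11 passed 2-fold in each experiment. The share of all genes was 10.7% in experiment 1 and 17.2% in experiment 2. Zbtb16 ran from 1.94 CPM in hashtag 2 to 37.8 in hashtag 4 of experiment 1 and from 0.861 in hashtag 6 to 29.8 in hashtag 4 of experiment 2. Gata3 (44.6 to 142 CPM and 24.8 to 102 CPM) had its lowest and highest hashtags in the same places as Zbtb16. Nfil3, a regulator of Id2 in innate lymphoid cells, ran from 4.91 to 15.2 CPM and from 6.37 to 17.8 CPM, and Egr1, an inducer of Id3, from 6.65 to 20.6 CPM and from 6.67 to 23.6 CPM. The highest hashtags of Egr1 were 5 and 2, neither of which led for Id3. Of 12 innate lymphoid genes, 6 of 7 passed 2-fold in experiment 1 and 9 of 9 in experiment 2, beside the same shares of all genes. Zbtb16, Nfil3 and Gata3 are on this list as well as on that of Id inducers, and were counted in both. Klrd1 ran from 2.01 CPM in hashtag 4 to 39.0 in hashtag 7 of experiment 1.

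The genes most like each member over the hashtags were ranked by the smaller of its 2 Pearson correlations, over 8 hashtags of each experiment, among 4964 genes whose mean reached 20 CPM in both. These are descriptions over cultures that share a library. Nrgn (0.98 in each experiment), Iqgap2 (0.98 and 0.97) and Mff (0.97 and 0.97) came first for Tcf3, and Fam169b (0.98 and 0.97), Trbc1 (0.98 and 0.97) and Cbl (0.96 and 0.95) for Tcf12. Card19 (0.96 and 0.92), H3f3a (0.97 and 0.91) and Atp6v0d1 (0.91 and 0.88) came first for Tcf4. Fxyd5 (0.95 and 0.94), Sh3bp1 (0.96 and 0.89) and Rabggtb (0.93 and 0.88) came first for Id1, and Lrp10 (0.97 and 0.92), Limd2 (0.94 and 0.92) and Btg1 (0.97 and 0.91) for Id2. Arf3 (0.95 and 0.88) and Was (0.94 and 0.88) were among the first for Id3. Nrgn levels were 127 to 705 CPM (experiment 1) and 64.2 to 634 CPM (experiment 2), a wider span than that of Tcf3 itself.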

How the data were processed

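The authors deposited raw UMI counts per gene and cell barcode for the 2 mRNA libraries, without normalization. Cell Ranger 3.0.0 and the builds mm10 and GRCm38 are named per the submitters' processing notes, and the file headers carry the same version. The annotation and the barcode filter are not given in the sources used here. Hashtag counts were deposited raw for each cell, without a statement of whether they are molecules or reads.

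A cell was kept with 500 genes or more and less than 10% of its UMIs from mitochondrial genes. A cell was given its top hashtag where that had at least 50 counts and at least 3 times the next. Cells failing this, among them those with 2 strong hashtags, were left out (535 in experiment 1 and 1879 in experiment 2), and no doublet caller was run. UMIs were summed per hashtag and divided by the hashtag's total. Intervals are exact 95% Poisson, conditional or Clopper-Pearson intervals. A gene passed 2-fold on the ratio of its highest to its lowest hashtag, with at least 10 UMIs in the lowest and a mean of at least 5 CPM. This fold counting stands in for a test, since no hashtag has a known condition. It was tried on simulated counts that held counting error and planted changes only. Such counts cannot show how it performs where cultures differ in other ways.

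Cells were clustered with scanpy 1.11.5 on 2000 variable genes without the members (30 principal components, 15 neighbours, Leiden 0.10.2 at resolution 0.5). A name needed 3 or more markers of the class in the cluster's 50 leading genes, 1 or more of them in the first 10. A cluster of low depth without such a marker, or with as many markers of another class, stayed unnamed. The text names the 6 members, Id4, the 3 genes most like each member and up to 4 genes with the largest ratio in each of 4 lists, except 1 gene like Id3 that is not reported here. Other genes only identify clusters and ranges. Alternatives used HTODemux of Seurat 5.3.0, TMM in edgeR 4.0.16, size factors in DESeq2 1.42.0 and the cell subsets given with the results. The members and lists were chosen with earlier results of these data known.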

Additional observations from a re-analysis of the deposited data

Results flagged for a closer look

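Id1 in hashtag 6 of experiment 2 stood at 70.8 CPM, with the next hashtag at 39.1 CPM, a gap of 0.593 of the range over the 8 hashtags. It was the only such gap among 14 sets of 8 values examined, where chance gives about 1 in 20.

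Cells of experiment 2 without a hashtag call, which enter no comparison, had Tcf4 at 81.7 CPM (interval 79.5 to 84.0) and Id3 at 230 CPM (226 to 233), above the highest hashtag of that experiment (67.5 and 143 CPM). Their summed stromal markers stood at 2447 CPM, against 202 to 973 CPM in the hashtags, and the part of stromal cells in these levels was not tested.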

How the results depend on the processing

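No paired analysis was possible because no hashtag has a known condition. The span of the E protein to Id ratio, highest over lowest hashtag, was 5.80 in experiment 1 and 3.98 in experiment 2. In experiment 1 it was 6.85 under a stricter cell filter (1000 genes, less than 5% mitochondrial), 6.53 as a mean over cells, 7.07 after thinning, 6.69 without the 5 barcodes with most UMIs of each member, and 4.98 with Id2 and Id3 only. It was 6.69 without the stromal-like cluster, 6.53 without cells with at least 3 stromal UMIs other than Igfbp7, and 8.40 without clusters of other lineages. No unnamed cluster of experiment 1 met the rule for leaving out. In experiment 2 it was 4.27 under that filter, 3.68 with looser hashtag calls, 3.62 with HTODemux, 4.28 after thinning, 4.72 and 4.93 under the 2 stromal settings, 5.09 without named other lineages and 6.21 without the unnamed ones too. Wherever other lineages were left out, the innate lymphoid-like clusters were kept. Leaving out each hashtag in turn gave 4.93 to 5.80 and 2.65 to 3.98. Members past 2-fold stayed at 3 and 4 in every leave-out, and HTODemux gave 5 in experiment 2, with Tcf4 at 2.11. The count between experiments was 1, and 0 without named other lineages and the unnamed myeloid or mature T-cell clusters. Such unnamed clusters were found in experiment 2 only. TMM and DESeq2 scaling kept all 3 counts. The causes of these shifts were not tested. Depth limits Id1 and Id3 most: in hashtag 3 of experiment 1 they rest on 226 and 176 UMIs.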
